A study of Mus musculus with 10 samples.

Results

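The genes of de novo fatty acid synthesis were followed in interscapular brown adipose tissue (iBAT) of mice that lack cardiolipin synthase in adipocytes. They are 10 genes chosen by name: the transcription factors Srebf1 (SREBP1) and Mlxipl (ChREBP), the enzymes Acly, Acaca, Acacb, Fasn, Scd1, Elovl6 and Me1, and Thrsp (Spot 14), a small protein that promotes lipogenesis. All 10 were found among the 15075 genes of the expression table, and all 10 were among the 11244 genes kept for testing because 1 group or both averaged 10 or more. Polyadenylated RNA was sequenced from iBAT of 5 Control and 5 AdCKO mice, with 1 library per mouse, and the comparison asks what loss of cardiolipin synthesis in fat does to brown fat gene expression. All 10 mice are labelled C57BL/6, 20 weeks old and housed at room temperature. AdCKO mice were Crls1 f/f with Cre under the adiponectin (Adipoq) promoter, which is active in white and brown adipocytes alike, so white fat depots were targeted together with iBAT. Control mice are labelled wild-type, but by the study's methods they were Crls1 f/f mice without Cre, so both groups carried the floxed exon 4.

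De novo lipogenesis turns citrate that has left the mitochondrion into fatty acids. ATP citrate lyase (Acly) releases acetyl-CoA, acetyl-CoA carboxylase makes malonyl-CoA from it, fatty acid synthase (Fasn) builds palmitate with NADPH that malic enzyme (Me1) and the pentose phosphate pathway supply, and Elovl6 and Scd1 lengthen and desaturate the product. SREBP1, which is released from the endoplasmic reticulum by proteolysis and answers to insulin, and ChREBP, which answers to glucose metabolites, drive these genes together, and brown fat is among the tissues in which the pathway is most active.

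The proximal promoters of the members are shown because the members moved together. RefSeq windows of 250 bases before an annotated start (build GRCm38.p6) were at hand for 9 of the 10 genes, as 13 entries, and they were searched on both strands for 5 motifs. The CCAAT box (CCAAT or ATTGG), which NF-Y binds, occurred in 7 of the 13 entries, from the 6 genes Acacb, Fasn, Me1, Mlxipl, Srebf1 and Thrsp, and in 33.8% of all 32851 promoter entries. The E-box CACGTG occurred in 1 entry, of Mlxipl, and in 6.02% of all entries, and the sterol regulatory element TCACNCCAC occurred in 1 other entry of Mlxipl and in 1.05% of all. The GC box GGGCGG occurred in 5 of the 13 entries, from Acly, Me1, Mlxipl and Srebf1, and in 32.7% of all. A strict form of the carbohydrate response element, a pair of exact CACGTG boxes 5 bases apart, occurred in 0 of the 32851 entries. Looser forms of the element were not searched, so this 0 does not show that the element is absent. The last 150 bases before the start follow for the genes that hold a CCAAT box, an E-box or a sterol regulatory element in them, 5′ to 3′ on the gene's strand, with those 3 motifs in capitals.
Fasn, chr11:120824548-120824697, minus strand: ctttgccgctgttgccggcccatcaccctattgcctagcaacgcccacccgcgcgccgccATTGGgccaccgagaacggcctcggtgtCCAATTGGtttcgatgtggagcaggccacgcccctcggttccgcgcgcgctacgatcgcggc
Thrsp, chr7:97417551-97417700, minus strand: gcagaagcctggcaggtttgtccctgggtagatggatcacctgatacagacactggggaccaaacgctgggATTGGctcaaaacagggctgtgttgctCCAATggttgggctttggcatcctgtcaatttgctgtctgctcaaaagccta
Acacb, chr5:114165368-114165517, plus strand: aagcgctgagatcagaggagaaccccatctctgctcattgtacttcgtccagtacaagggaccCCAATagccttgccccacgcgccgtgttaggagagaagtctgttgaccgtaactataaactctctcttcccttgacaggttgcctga
Mlxipl, chr5:135089740-135089889, plus strand: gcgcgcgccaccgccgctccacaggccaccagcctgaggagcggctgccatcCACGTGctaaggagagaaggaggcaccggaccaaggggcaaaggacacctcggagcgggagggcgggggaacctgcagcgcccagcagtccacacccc
Mlxipl, chr5:135106741-135106890, plus strand: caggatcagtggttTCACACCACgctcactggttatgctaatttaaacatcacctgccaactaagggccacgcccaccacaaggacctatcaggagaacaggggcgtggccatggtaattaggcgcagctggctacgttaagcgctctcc
Srebf1, chr11:60210472-60210621, minus strand: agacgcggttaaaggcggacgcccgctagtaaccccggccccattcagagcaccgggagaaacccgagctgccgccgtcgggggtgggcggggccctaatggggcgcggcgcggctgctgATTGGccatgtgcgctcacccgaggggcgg
In the Fasn window the boxes start at positions -90, -62 and -59 counted from the annotated start, and the last pair overlaps within CCAATTGG. In Thrsp they start at -79 and -52, in Acacb at -87, and in the Srebf1 window shown at -30. The CACGTG of Mlxipl starts at -98 of one annotated start, and TCACACCAC starts at -136 of the other. These matches describe letters in a window and were not tested against expression.

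The values are normalized reads per kb of counted exon, which the authors had scaled between libraries with DESeq2 and moderated between samples. They are not counts, none is 0, and because library depth is unknown the only error stated is the spread between 5 mice. Fold changes were taken on the log2(value + 1) scale and tested two-sided with limma, and a gene was called at a Benjamini-Hochberg adjusted p under 0.01 among the 11244 genes. Multiplied by counted length and summed, normalized reads came to 7615400 to 8171140 per Control library and 5419800 to 5843020 per AdCKO library. Crls1 lay between 813 and 1291 in Control and between 193 and 249 in AdCKO (log2 fold change -2.27, SE 0.13, limma adjusted p = 3.53e-08). Skeletal muscle genes stood out in AdCKO 1, 2 and 4, where Acta1 read 1962, 7056 and 2990, whereas it read 93.3 and 74.5 in AdCKO 3 and 5 and at most 56.1 in Control. Summed over 8 muscle markers the level was 108 to 176 in Control and 218 to 22464 in AdCKO. Transcripts of the Y chromosome were present in all 10 libraries.

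All 10 lipogenic genes were lower in AdCKO iBAT. Each was called, and in each the highest AdCKO value lay under the lowest Control value (exact two-sided permutation test, p = 0.0079 per gene, the smallest that 5 against 5 allow). This is read against a background in which 28.0% of the tested genes were called lower, 25.6% higher and 53.6% in either direction, and 26.4% had every AdCKO value below every Control value. The falls were large for most members. A call with a log2 fold change of -1 or less was made for 6.16% of the tested genes and for 9 of the members, and a call at -2 or less was made for 0.667% of the tested genes and for 6 members, Fasn, Thrsp, Acaca, Elovl6, Acacb and Acly. The median of the 10 log2 fold changes was -2.06, beside -0.01 over all tested genes. In bulk tissue, fewer adipocytes and less of a transcript per adipocyte cannot be told apart.

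**Figure D1:**
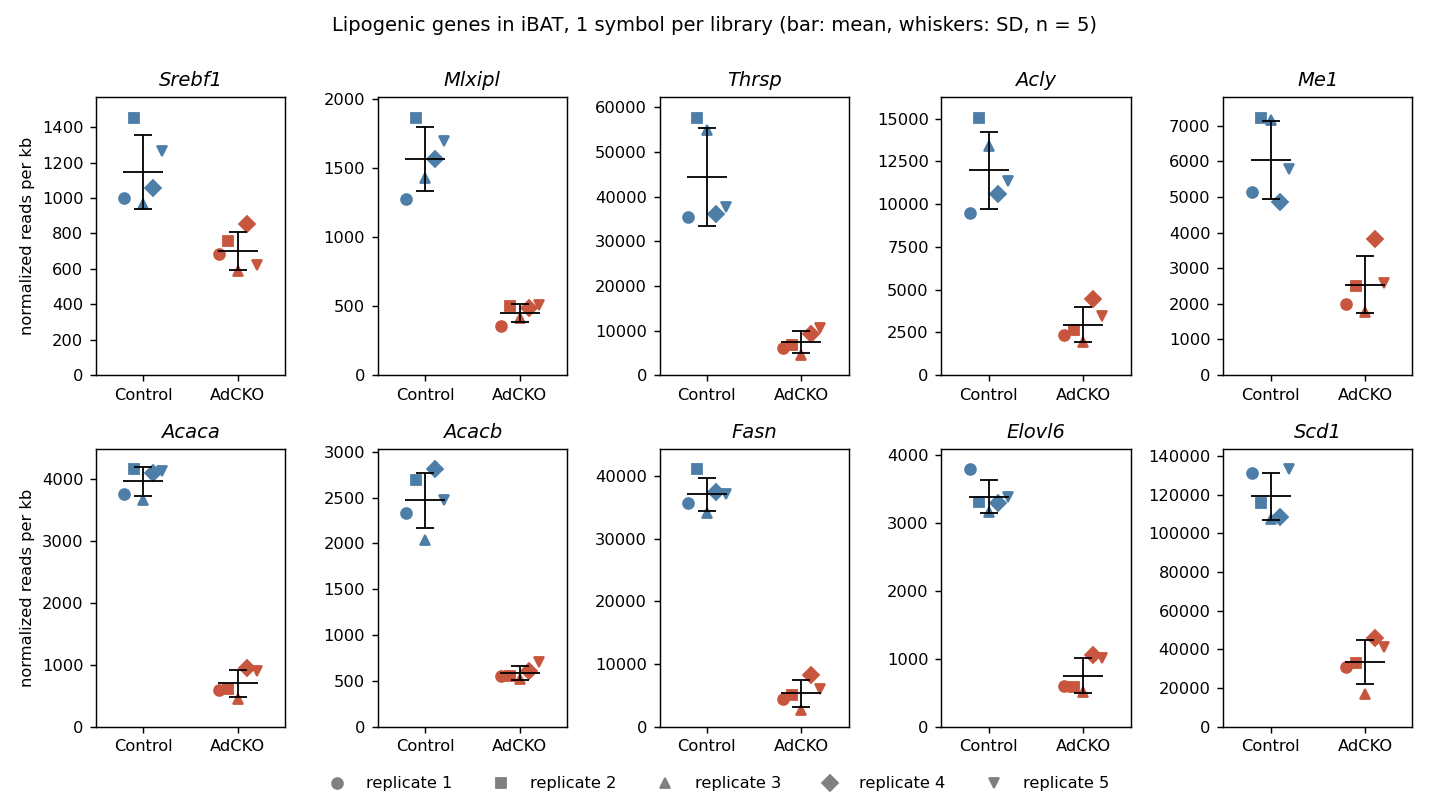
Values of the 10 lipogenic genes in normalized reads per kb (vertical axis, linear and from 0, 1 panel per gene) in Control and AdCKO iBAT, 1 symbol per library, with the mean and SD (n = 5). In every panel the 5 AdCKO libraries lie below the 5 Control libraries, with the narrowest gap in Srebf1 and AdCKO 3 lowest in 9 of the 10 panels.

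Of the regulators, Srebf1 moved least and Mlxipl far more. Srebf1 (NM_011480; mm9 chr11:60012591-60034106, minus strand) read 999, 1454, 965, 1055 and 1267 in Control 1 to 5 and 684, 757, 590, 851 and 621 in AdCKO 1 to 5. The groups did not overlap, but the lowest Control value was only 1.13 times the highest AdCKO value. The means were 1148 ± 207 and 701 ± 106 (SD, n = 5 each), so AdCKO kept 61.0% of the Control level (log2 fold change -0.71, SE 0.13, limma adjusted p = 0.000465). Mlxipl (NM_021455; mm9 chr5:135582761-135614252, plus strand) read 1277, 1866, 1427, 1570 and 1698 in Control and 355, 498, 414, 490 and 505 in AdCKO. The lowest Control value was 2.53 times the highest AdCKO value, and the means, 1567 ± 229 and 452 ± 65.8, left 28.9% (log2 fold change -1.79, SE 0.12, limma adjusted p = 1.66e-07). The files give 1 value per gene, so the isoforms SREBP1a and SREBP1c, and the isoforms of ChREBP, are not separated. In Control Mlxipl was above Srebf1 in all 5 libraries, and in AdCKO it was below Srebf1 in all 5.

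Thrsp (NM_009381; mm9 chr7:104561467-104566020, minus strand), the small lipogenic protein whose gene answers to thyroid hormone and carbohydrate, was among the most abundant transcripts of Control iBAT. It read 35492, 57662, 54911, 36172 and 37766 in Control and 6162, 6698, 4574, 9305 and 10636 in AdCKO. Controls 2 and 3 stood above the other Controls, and all 5 AdCKO libraries lay far below them. The means were 44401 ± 10925 and 7475 ± 2454 (log2 fold change -2.60, SE 0.23, limma adjusted p = 1.28e-06). Its rank by level among the genes of the table went from 4 to 21.

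The enzymes that deliver substrate and reducing power, Acly and Me1, both fell. Acly (NM_134037; mm9 chr11:100337666-100389314, minus strand) read 9468, 15056, 13400, 10586 and 11371 in Control and 2351, 2620, 1935, 4441 and 3464 in AdCKO. Its AdCKO mean of 2962 ± 998 was 24.7% of the Control mean of 11976 ± 2242 (log2 fold change -2.06, SE 0.21, limma adjusted p = 3.56e-06). Me1 (NM_008615; mm9 chr9:86474970-86589947, minus strand), the cytosolic malic enzyme, read 5139, 7220, 7158, 4869 and 5792 in Control and 1988, 2501, 1780, 3832 and 2581 in AdCKO. After Srebf1 it was the member that moved least: AdCKO kept 42.0% of the Control mean of 6036 ± 1105 (log2 fold change -1.28, SE 0.19, limma adjusted p = 9.14e-05). AdCKO 4 came within 1.27 times of the lowest Control.

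Both acetyl-CoA carboxylases fell. Acaca (ACC1; NM_133360; mm9 chr11:84008940-84215153, plus strand) makes the cytosolic malonyl-CoA used for synthesis. It read 3750, 4157, 3662, 4104 and 4135 in Control and 589, 614, 444, 955 and 892 in AdCKO. The Control libraries were close together, with a coefficient of variation of 5.96%, against 31.0% in AdCKO. AdCKO kept 17.6% of the Control level (log2 fold change -2.56, SE 0.18, limma adjusted p = 1.8e-07). Acacb (ACC2; NM_133904; mm9 chr5:114615527-114700767, plus strand) makes malonyl-CoA at the outer mitochondrial membrane, where it inhibits fatty acid import. It read 2334, 2693, 2039, 2810 and 2474 in Control and 550, 549, 522, 605 and 711 in AdCKO, with coefficients of variation of 12.8% in AdCKO and 12.3% in Control. AdCKO kept 23.8% (log2 fold change -2.07, SE 0.11, limma adjusted p = 2.46e-08).

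Fasn (NM_007988; mm9 chr11:120667272-120685861, minus strand), the synthase itself, fell the most of the 10. It read 35662, 41110, 34072, 37545 and 37120 in Control and 4422, 5128, 2614, 8319 and 6069 in AdCKO. The lowest Control library held 4.10 times the highest AdCKO library, the widest such gap among the members. The means were 37102 ± 2623 and 5310 ± 2105, a 6.99-fold difference (log2 fold change -2.90, SE 0.24, limma adjusted p = 7.03e-07). Only 7 of the 11244 tested genes had a larger fall. Its coefficient of variation was 7.07% in Control and 39.6% in AdCKO.

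Of the modifying enzymes, Elovl6 (NM_130450; mm9 chr3:129235304-129341411, plus strand), which elongates palmitate, read 3786, 3308, 3159, 3292 and 3376 in Control and 594, 586, 517, 1048 and 1005 in AdCKO. AdCKO 4 and 5 stood above the other AdCKO libraries, and the lowest Control value was still 3.01 times the highest of them. The means were 3384 ± 238 and 750 ± 255 (log2 fold change -2.23, SE 0.19, limma adjusted p = 7.03e-07). Scd1 (NM_009127; mm9 chr19:44468940-44482199, minus strand), which makes monounsaturated fatty acids, read 131076, 115579, 107576, 108354 and 133084 in Control and 30852, 32998, 16637, 45722 and 41444 in AdCKO. It kept rank 2 by level in both groups although AdCKO held 28.1% of the Control level (means 119134 ± 12244 and 33531 ± 11226, log2 fold change -1.90, SE 0.24, limma adjusted p = 2.44e-05). Scd1 lies beside its paralogs Scd2, Scd3 and Scd4, and how the counting treated reads that fit more than one of them is not given in the sources used here, so the split between these genes is uncertain. The strand used in counting is not given either, and exons of Srebf1, Acaca and Me1 overlap exons of genes on the opposite strand (Rai1, Gm17722 and A330041J22Rik), whose reads could not be told apart without it.

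The AdCKO libraries were ordered alike in many members, and the Control libraries less so. Within AdCKO, AdCKO 3 was lowest for 9 members and AdCKO 1 for Mlxipl, and AdCKO 4 was highest for 7 and AdCKO 5 for 3. Within Control, Control 2 was highest for 7 members and Control 3 lowest for 6. Control 3 was also second highest for 3, and Control 1 was highest for 1 and lowest for 3. AdCKO 3 was one of the 2 AdCKO libraries with low muscle markers and AdCKO 4 one of the 3 with high ones. Whether muscle content bears on the order within AdCKO was not tested. AdCKO 5, also with low muscle markers, was highest for 3 members and second highest for 6. AdCKO 1, with high muscle markers, was second lowest for 6. With only AdCKO 3 and 5 set against the 5 Controls, all 10 members were called lower, against 19.3% of the tested genes. The median log2 fold change was -2.18, with Fasn at -3.22 and Srebf1 at -0.90. This subset holds AdCKO 3, the lowest for 9 members, and could not change a direction, since the groups overlapped in no member. Whether muscle content bears on the falls was not tested.

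Counted as a share of each library's normalized reads (value times counted length over the sum of all genes), the 10 genes made up 15.0%, 14.8%, 14.1%, 14.0% and 15.3% of the Control libraries and 4.27%, 4.47%, 2.60%, 6.55% and 5.47% of the AdCKO libraries. Scd1 and Fasn held most of it. Scd1 took 7.34% ± 0.723 of a Control library and 2.87% ± 0.913 of an AdCKO library, and Fasn took 4.69% ± 0.221 and 0.933% ± 0.358 (SD, n = 5 each, exact permutation p = 0.0079 for both). The other 8 genes each took under 1% of every library. Acly went from 0.670% to 0.231%, Thrsp from 0.587% to 0.137%, Acaca from 0.456% to 0.112%, Acacb from 0.267% to 0.0885%, Elovl6 from 0.257% to 0.0789% and Mlxipl from 0.0727% to 0.0293% (exact permutation p = 0.0079 each). In these genes, 8 with Scd1 and Fasn, every AdCKO share was below every Control share, as in 8.72% of the tested genes. The share of Me1 was 0.248% ± 0.0445 in Control and 0.145% ± 0.0439 in AdCKO, with AdCKO 4 at 0.218% inside the Control range (exact permutation p = 0.024). The share of Srebf1 was 0.0611% ± 0.00943 in Control and 0.0522% ± 0.00757 in AdCKO and did not pass the test (exact permutation p = 0.13). These are 10 tests, given without adjustment.

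**Figure D2:**
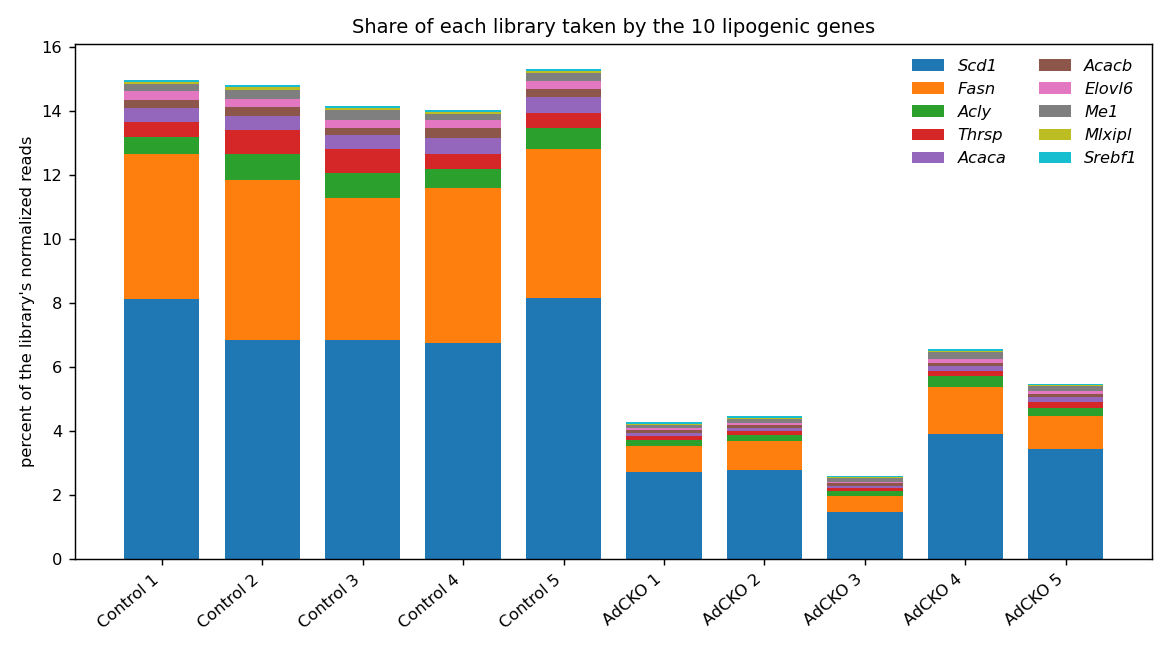
Percent of each library's normalized reads taken by the 10 lipogenic genes (vertical axis, stacked bars from 0, 1 bar per library). The bars reach 14.0% to 15.3% in Control and 2.60% to 6.55% in AdCKO, and Scd1 (bottom) and Fasn (next) make up most of each bar.

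The library totals themselves differed, so the scale on which a member is read matters. The mean total fell by 28.4% from Control to AdCKO (7850900 and 5623680 normalized reads), and the 10 members carried 39.8% of that difference, as their own sum went from 1150600 to 264275 normalized reads. Without them the mean total fell by 20.0%. Setting every library to the same total shifted the median of all tested genes by 0.47 in log2, and 9 of the 10 members were still called lower, against 9.77% of the tested genes. Fasn was then at -2.42, Acaca at -2.08, Scd1 at -1.42 and Mlxipl at -1.31 (limma adjusted p of 1.34e-06, 3.3e-07, 0.000113 and 4.43e-07). Srebf1 was at -0.23 (SE 0.12, limma adjusted p = 0.10), which is -0.68 relative to the median of all genes.

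Adipocyte markers were also lower in AdCKO. Of 8 listed adipocyte genes 7 were called lower, beside 28.0% of all tested genes. Among them were the lipases Pnpla2 at -1.23 and Lipe at -1.20, and the median log2 fold change of the 8 was -0.63. Fabp4, the most abundant, was at -0.44 and did not pass (limma adjusted p = 0.020). Their summed level was 178428 to 213994 in Control and 122646 to 142632 in AdCKO, without overlap. With the same total 3 of the 8 were called lower, beside 9.77% of all tested genes. With quantile normalization 2 of the 8 were called lower, beside 31.1% of all tested genes. All 8 macrophage markers were higher (summed level 465 to 1332 in Control and 6899 to 9294 in AdCKO), as were all 6 fibroblast markers (1010 to 1316 and 4023 to 5881). Of the endothelial markers 2 of 6 were higher, and of the lymphocyte markers 2 of 5 tested, beside 25.6% of all tested genes. Of 9 brown adipocyte markers 6 were lower, beside 28.0% of all tested genes, with Ucp1 at -1.42, and Ppargc1a was higher at 2.24. Ucp1 did not pass under quantile normalization (-0.40, limma adjusted p = 0.21) or when centred on adipocyte genes (-0.64, limma adjusted p = 0.033). How far cell composition accounts for the values of the members was not tested. With each library centred on the mean of the 8 adipocyte genes, which moved the median of all genes up by 0.78, 9 of the 10 members were called lower, against 4.14% of the tested genes. Fasn was then at -2.12, Thrsp at -1.82, Acaca at -1.78, Scd1 at -1.13 and Me1 at -0.51 (limma adjusted p = 0.0097 for Me1). Srebf1 changed sign on this scale and did not pass (0.07, SE 0.12, limma adjusted p = 0.59), which is -0.70 relative to the median of all genes.

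**Figure D3:**
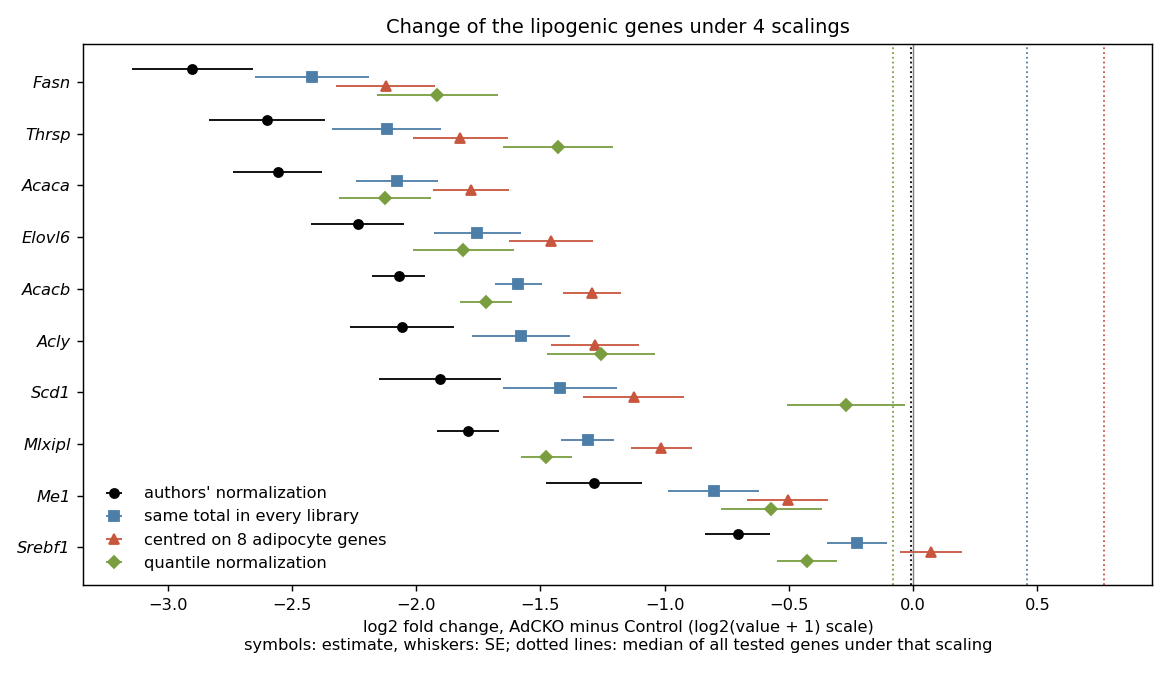
Log2 fold change of each member, AdCKO minus Control on the log2(value + 1) scale (horizontal axis), with its SE, under the authors' normalization and 3 other scalings, with dotted lines at the median of all tested genes under each. Fasn stays between -2.90 and -1.92 under all 4, Srebf1 runs from -0.71 to 0.07, and Scd1 is at -0.27 under quantile normalization.

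Quantile normalization, which gives every library the same set of values, called 8 members lower, against 31.1% of the tested genes. Scd1, at rank 2 by level in both groups, was at -0.27 (limma adjusted p = 0.33) and Me1 at -0.57 (limma adjusted p = 0.027), and Acaca was at -2.13 and Fasn at -1.92.

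Ratios of 2 genes in the same library do not change when all values of that library are multiplied by 1 factor. Quantile normalization and the authors' moderation need not act in this way. The 5 ratios were tested with Benjamini-Hochberg adjustment over the 5. Mlxipl to Srebf1 went from 1.37 ± 0.103 to 0.653 ± 0.114 between Control and AdCKO (SD, n = 5 per group), which is -1.09 in log2 without overlap (exact permutation p = 0.0079, adjusted 0.0099). Srebf1 to Srebf2, the SREBP gene that mainly serves cholesterol synthesis, went from 11.6 ± 1.20 to 7.60 ± 0.810 (log2 difference -0.61, exact permutation p = 0.0079, adjusted 0.0099). Srebf2 itself read 83.4 to 111 in Control and 78.6 to 104 in AdCKO and was not called (log2 fold change -0.10, limma adjusted p = 0.42).

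Scd1 to Scd2, a desaturase paralog, went from 82.8 ± 25.0 to 28.3 ± 7.72 (log2 difference -1.56), and Thrsp to its paralog Mid1ip1, which also acts on acetyl-CoA carboxylase, went from 141 ± 44.7 to 29.0 ± 8.27 (log2 difference -2.28), both without overlap (exact permutation p = 0.0079, adjusted 0.0099). Scd2 and Mid1ip1 were not called, with log2 fold changes of -0.35 (limma adjusted p = 0.076) and -0.32 (limma adjusted p = 0.14). Under quantile normalization Scd1 was at -0.27 and Scd2 at 0.07, and Thrsp was at -1.43 and Mid1ip1 at -0.18, so these 2 contrasts were smaller there. Acacb to Acaca went the other way, from 0.622 ± 0.0484 to 0.887 ± 0.199, a log2 difference of 0.49 (exact permutation p = 0.024, adjusted 0.024). Here the groups overlapped, since AdCKO 4 at a log2 ratio of -0.66 lay inside the Control range of -0.84 to -0.55, and AdCKO 3 at 0.23 was the only library with more Acacb than Acaca.

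**Figure D4:**
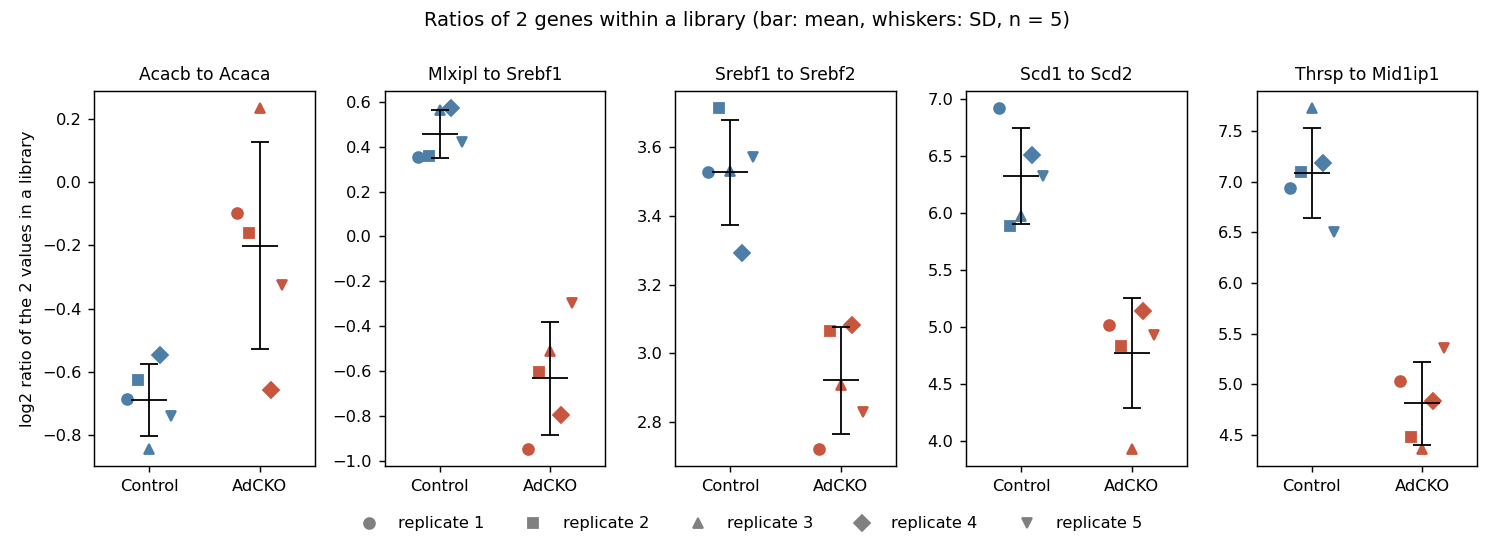
Log2 ratio of 2 genes within a library (vertical axis, a scale of its own in each of the 5 panels) for Control and AdCKO, 1 symbol per library, with the mean and SD (n = 5). Only in the Acacb to Acaca panel do the groups overlap, where AdCKO is higher on average, and in the other 4 panels every AdCKO library is below every Control library.

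The supply of citrate, acetyl-CoA and NADPH was read from 12 further genes, all tested. Of these 9 were lower, 2 higher and 1 was not called, with a median log2 fold change of -0.67. Here and in the lists below, such counts stand beside 28.0% of all tested genes called lower and 25.6% called higher. The lower ones included Slc25a1, the mitochondrial citrate carrier, Acss2, which makes cytosolic acetyl-CoA from acetate, and the pentose phosphate enzyme G6pdx. Acss2 read 1850 to 3440 in Control and 380 to 774 in AdCKO (log2 fold change -2.29, SE 0.23, limma adjusted p = 3.25e-06). Slc25a1 read 6276 to 9695 and 1538 to 3775 (-1.73, SE 0.21, limma adjusted p = 1.76e-05). Me3, a mitochondrial malic enzyme, was at -2.45, G6pdx at -0.99 and Idh1 at -0.60. Against them, Slc25a10, the dicarboxylate carrier, was at 1.35 and Nnt, the mitochondrial transhydrogenase, at 1.09. Under the same total 5 of the 12 were lower and 3 higher, and list counts under that scaling stand beside 9.77% of all tested genes called lower and 60.6% called higher.

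Genes that act on malonyl-CoA and its target moved in both directions. Of 11, all tested, 6 were lower, 2 higher and 3 not called (median -0.36). Mlycd, which degrades malonyl-CoA, was at -0.95 (595.6 to 817 in Control, 337 to 410 in AdCKO). The malonyl-CoA-sensitive carnitine palmitoyltransferases parted: Cpt1b, the form that prevails in brown fat and muscle, read 4222 to 5535 in Control and 1468 to 2544 in AdCKO (-1.32, SE 0.13, limma adjusted p = 3.34e-06), and Cpt1a, the form known from liver, read 38.8 to 59.2 and 134 to 178 (1.59, SE 0.12, limma adjusted p = 3.88e-07). The beta subunits of AMP-activated kinase, which phosphorylates acetyl-CoA carboxylase, parted too, with Prkab1 at -1.19 and Prkab2 at 0.84. Under the same total 3 were lower and 3 higher.

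Among 13 further desaturase and elongase genes, 11 were tested, of which 5 were lower, 3 higher and 3 not called (median -0.35). Scd4 was at -2.26, and it is a close paralog of Scd1. Hsd17b12, an enzyme of the elongation cycle, was at -0.71. The 3 higher genes were Fads3 at 2.14, Elovl1 at 1.28 and the polyunsaturated desaturase Fads1 at 1.13, with limma adjusted p of 4.93e-07, 5.48e-07 and 1.37e-06. Fads3 read 45.5 to 72.0 in Control and 185 to 338 in AdCKO, at a level far under that of Scd1 per kb. Under the same total 3 were lower and 5 higher.

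Targets outside lipogenesis were read from a list for each factor. Of 8 listed ChREBP targets 6 were in the table and 5 were tested, and 4 were lower and 1 higher (median -0.89): Gpd1, glycerol-3-phosphate dehydrogenase, at -2.04, the fructose enzymes Khk at -1.14 and Dak at -0.89, Txnip at -0.49, and Arrdc4 at 0.72. Txnip changed sign under quantile normalization (0.12). Of 13 listed sterol genes served by SREBPs 12 were in the table and 11 were tested, and 5 were lower and none higher, with 6 not called (median -0.40). Among the lower ones were Fdft1 at -2.06, Idi1 at -1.32, Dhcr7 at -0.98 and Fdps at -0.96. Under the same total 3 ChREBP targets were lower and 1 higher, and 3 sterol genes were lower and 2 higher.

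The partners of the factors were read from 17 genes, all tested, of which 7 were lower, 1 was higher and 9 were not called (median -0.23). Insig1, which holds SREBPs in the endoplasmic reticulum and is itself an SREBP target, read 1286 to 2167 in Control and 745 to 1019 in AdCKO (-1.01, SE 0.15, limma adjusted p = 6.95e-05). Mlx, the partner that ChREBP needs to bind DNA, was at -0.52, Nr1h3, the liver X receptor alpha, at -0.37, and the SREBP escort Scap at -0.36. Nfya, a subunit of the CCAAT-binding factor NF-Y, was at 0.36. Some of these small values changed sign with the scaling. With the same total, Scap was at 0.12 and Nr1h3 at 0.11, which is -0.34 and -0.35 relative to the median of all genes, and 7 of the 17 were called higher and 1 lower, beside 60.6% of all tested genes called higher. Of the list genes named, Scap, Nr1h3, Mlx, Idh1, Hsd17b12, Txnip and Fdps did not pass with the same total. Nfya, Nr1h3, Prkab2, Hsd17b12, Txnip and the adipocyte gene Lipe did not pass under quantile normalization. Centred on adipocyte genes, Insig1, Mlx, Idh1, G6pdx, Mlycd, Hsd17b12, Txnip, Dak, Fdps and Dhcr7 did not pass, and Scap and Nr1h3 were called higher. On that scale 15 of the 17 partners and 8643 of the 11244 tested genes were called higher. Relative to the median of all genes, Scap was then at -0.35 and Nr1h3 at -0.36.

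**Figure D5:**
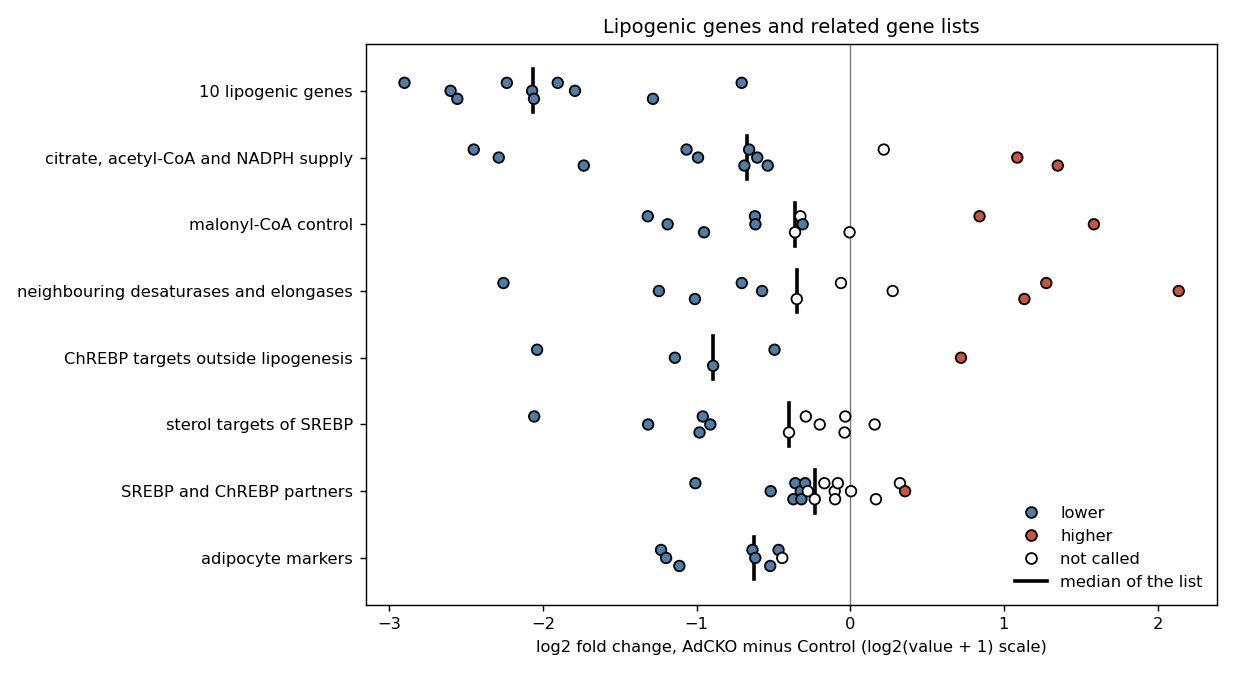
Log2 fold change, AdCKO minus Control on the log2(value + 1) scale (horizontal axis), of the tested genes of the 10 members, 6 related lists and 8 adipocyte markers, with the called genes in colour and the list's median as a bar. The members lie between -2.90 and -0.71 with no point above 0. At least 1 gene was called higher in 5 of the 6 related lists, beside 25.6% of all tested genes. The sterol list and the adipocyte markers hold 0 genes called higher.

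Likeness across the 10 libraries was measured as the root mean square difference of centred log2 values, as a description. Both groups enter it together, so it reflects in large part the size of the fall from Control to AdCKO. Among the members, Acaca and Elovl6 were most alike (0.20), and Srebf1 and Fasn least (1.14). Outside the members the genes nearest to Srebf1 included Lrsam1 (0.094) and Tm7sf2 (0.11), those nearest to Mlxipl were Chdh (0.14), Ccdc57 and Gcat (0.15 each), and those nearest to Fasn were Ntrk2 (0.25), Tmem79 (0.28) and Ldhd (0.31). Ccdc57 lies beside Fasn on the same strand of chromosome 11, with 1994 bases between them in mm9.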

How the data were processed

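Members, lists and tests were chosen with earlier results of these data known. By the labels and the study's methods, the authors sequenced poly(A) RNA, aligned it with STAR (build mm9), took exon counts with iRNA-seq and scaled these with DESeq2. What they deposited is a signal, normalized reads per kb of counted exon, moderated between samples, for 15075 genes and 10 libraries. They are not counts, so DESeq2, the study's test, was replaced by limma 3.58.1 in R 4.3.3 with an intensity trend on log2(value + 1), over 11244 genes whose mean reached 10 in a group, at an adjusted p under 0.01. Fold changes on this scale understate those of low genes. On simulated data for this comparison (11244 genes), 89.6% of 67 genes changed by 1 on the log2 scale were recovered, and 45.5% of 66 changed by 0.5. Apart from these only 67 genes, changed by 2, differed there, whereas 53.6% of the tested genes were called in the data. The recovery rates therefore need not hold for the data. The p-values measure the spread between 5 mice per group. Whole-library totals are given after normalization, so depth before it is unknown. Columns of the authors' own fold changes, p-values and lists of called genes were not used. File starts were taken as 1-based after adding 1.

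The text names all 10 members, up to 4 genes of smallest p per related list, called genes against their list, the genes of the 5 ratios, and the 3 genes nearest to Srebf1, Mlxipl and Fasn. Slc25a1, Scd4 and Txnip were named after their values were seen. A gene that this rule names is not reported here. The alternatives were pseudocounts of 0.1 and 10, no filter, a mean of at least 1, 3 other scalings, 3 other limma settings, the replicate number as a block, an adjusted p of 0.05 and each library left out in turn. The fit with AdCKO 3 and 5 alone was added after seeing the data. Python 3.11.15 and matplotlib 3.10.9 drew the figures.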

Additional observations from a re-analysis of the deposited data

Results flagged for a closer look

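Of 52 sets of 5 values examined for a single library standing apart (Dixon's test, critical value 0.71), of which chance gives about 1 in 20, 2 did. The log2 ratio of Scd1 to Scd2 in AdCKO 3 was 3.93, below 4.83 to 5.13 in the other AdCKO libraries. The share of Elovl6 in Control 1 was 0.288% of the library, above 0.241% to 0.254% in the other Control libraries.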

How the results depend on the processing

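Over 13 other settings with 10 members each, all but 4 of 130 log2 fold changes kept their direction and their side of the threshold, and with 1 library left out in turn all 100 did (-3.09 to -0.62, limma adjusted p at most 0.0018). Changes of filter, pseudocount, trend, block or threshold leave these fold changes the same or nearly so, and could hardly change a direction. The 4 exceptions came with rescaling, which moves the fold changes themselves. Srebf1 was at -0.23 with the same total. Centred on adipocyte genes, the log2 fold change of Srebf1 turned to 0.0719. Scd1 was at -0.27 and Me1 at -0.57 under quantile normalization. The members called lower numbered 10, with 9, 9 and 8 under these 3 scalings in that order. The first 2 of these scalings move all genes of a library together. Relative to the median of all genes, Srebf1 was at -0.68 and -0.70 under them. The cause of the Me1 value was not tested. Scd1 holds rank 2 in both groups, which quantile normalization gives nearly the same value.

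Over all tested genes, 2879 were called higher and 3152 lower (47.7% and 52.3% of calls). With the same total these were 6811 and 1098 (86.1% and 13.9%), when centred on adipocyte genes 8643 and 465 (94.9% and 5.11%), and with quantile normalization 2526 and 3498 (41.9% and 58.1%). With 1 library left out they ran from 2648 to 2874 and from 2879 to 3066, and 10 members lower, 0 higher, 9 shares and 5 ratios past the test were found each time.

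The replicate numbers did not pair the libraries: same-numbered libraries deviated with correlations of -0.27 to 0.098. With the replicate block 2592 genes were called higher and 2838 lower, and all 10 members remained lower. For shares and ratios the block left 0 shares and 0 ratios past the test, since 5 pairs allow no p under 0.0625 in the exact sign-flip permutation test. The moderated values and the unknown depth limit what can be said of low genes.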
